A study of Homo sapiens with 3 samples.

Results

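The transcription factors that set the plasma cell state, together with MYC, were followed under FK866 in MM1S, a cell line established from human multiple myeloma. The set has 10 genes: IRF4, PRDM1, BACH2, MYC, IKZF1, IKZF3, POU2AF1, POU2F2, PAX5 and SPIB. A probe set was taken where the platform annotation gives it exactly 1 gene symbol, one of these 10. That gave 34 probe sets for 10 of 19775 annotated genes, and 0 further probe sets named a member among several symbols. FK866 inhibits NAMPT, the enzyme that recycles nicotinamide into NAD. The groups were cells cultured without FK866, labelled as 0 h, cells in 10 nM FK866 for 6 h, and cells in 10 nM FK866 for 24 h, each as 1 array. All were grown in RPMI-1640 with serum, antibiotics and glutamine. Treated times have no untreated array of their own, so FK866 and time in culture cannot be told apart.

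Plasma cells arise from B cells by an exchange of transcription factors. PAX5, BACH2 and SPIB hold the B cell programme, and BACH2 represses PRDM1, which encodes BLIMP1. IRF4 and BLIMP1 drive differentiation and shut that programme down, POU2AF1 and POU2F2 act at octamer sites of immunoglobulin genes, and the Ikaros proteins IKZF1 and IKZF3 maintain IRF4 in myeloma. Myeloma cells depend on IRF4, which also activates MYC, the driver of growth and ribosome production in many of these tumours.

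At 24 h the kept probe sets of BACH2 and of IRF4 differed from untreated cells in opposite directions. Both BACH2 probe sets were at least 2-fold lower at 6 h and at 24 h, as were 5.26% and 6.34% of all probe sets kept by level. Every kept probe set was that much lower in 0.637% of the 5967 genes with several at 6 h and in 1.01% at 24 h. These genes are of any level and number of kept probe sets, whereas BACH2 has only 2, so the shares are not of like genes. The brighter BACH2 probe set was just at 2-fold at 24 h and inside it after each of 3 scalings of the arrays, given below. IRF4 was 1.90-fold higher at 24 h by its bright probe set and 1.76-fold higher by its dim one, while at 6 h the probe sets went different ways. Dim probe sets of SPIB at 6 h and of IKZF1 and POU2F2 at 24 h differed by more than IRF4. By its brightest probe set PRDM1 was lower in both treated arrays, 1.32-fold at 6 h and 1.34-fold at 24 h. MYC, POU2AF1 and the brightest probe sets of IKZF1 and IKZF3 stayed within 1.12-fold of untreated cells. PAX5 was under the floor on every array.

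A signal is the deposited intensity of a probe set in arbitrary units, and signals under 16 were set to this floor before log2 was taken. A probe set was kept where its mean log2 signal over the 3 arrays reached the median of all probe sets, which equals a signal of 19.1. Of the 34 member probe sets 24 were kept, from 9 genes. Called means at least 2-fold in a kept probe set. With 1 array per group there was no test, and the differences carry no replicate check. The only error measure is the pooled SD of the log2 difference between kept probe sets of one gene at a like level, which covers probes and isoforms but not cultures. It was 0.18 at 6 h and 0.20 at 24 h where the mean log2 signal was 10 or more, 0.28 and 0.29 between 8 and 10, and 0.40 and 0.39 between 6 and 8. Between 5 and 6 it was 0.49 at both times. For these SDs a gene's level is the mean over its kept probe sets, while each member probe set is compared by its own level. By that mean IRF4 and PRDM1 fall between 8 and 10, where the SD is larger than at the level of their brightest probe sets. In RNA from a whole culture, fewer cells with a transcript and less of it per cell cannot be told apart. Levels of different probe sets are not compared, since their probes differ in affinity.

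The arrays were dimmer after FK866. The median kept probe set differed from untreated cells by -0.14 at 6 h and -0.18 at 24 h on the log2 scale, and the median gene by -0.10 and -0.13. Of 15 markers of myeloma and plasma cells, 13 had a signal of at least 100 on all 3 arrays, with CD27 and IGKC below it, and their summed signal ranged from 76924 to 86815. Of 7 mature B cell markers with a probe set, 3 were under the floor on every array and CD79B and CR2 reached 100 on every array, with sums from 307 to 382. Of the 8 T and NK cell markers 5, and of 4 myeloid markers 2, were under the floor on every array, with sums from 68.6 to 101 and from 57 to 84.3. Of 7 stroma and vessel markers, PECAM1 reached 100 on every array and 2 were under the floor throughout, with sums from 229 to 249.8. The erythroid marker HBB had signals of 323, 340.0 and 289 in the untreated, 6 h and 24 h arrays by its brightest probe set. The log2 differences of its 4 kept probe sets ran from -1.25 to 0.08 at 6 h and from -1.07 to -0.10 at 24 h. The part of other cells in any member's difference was not tested.

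**Figure D1:**
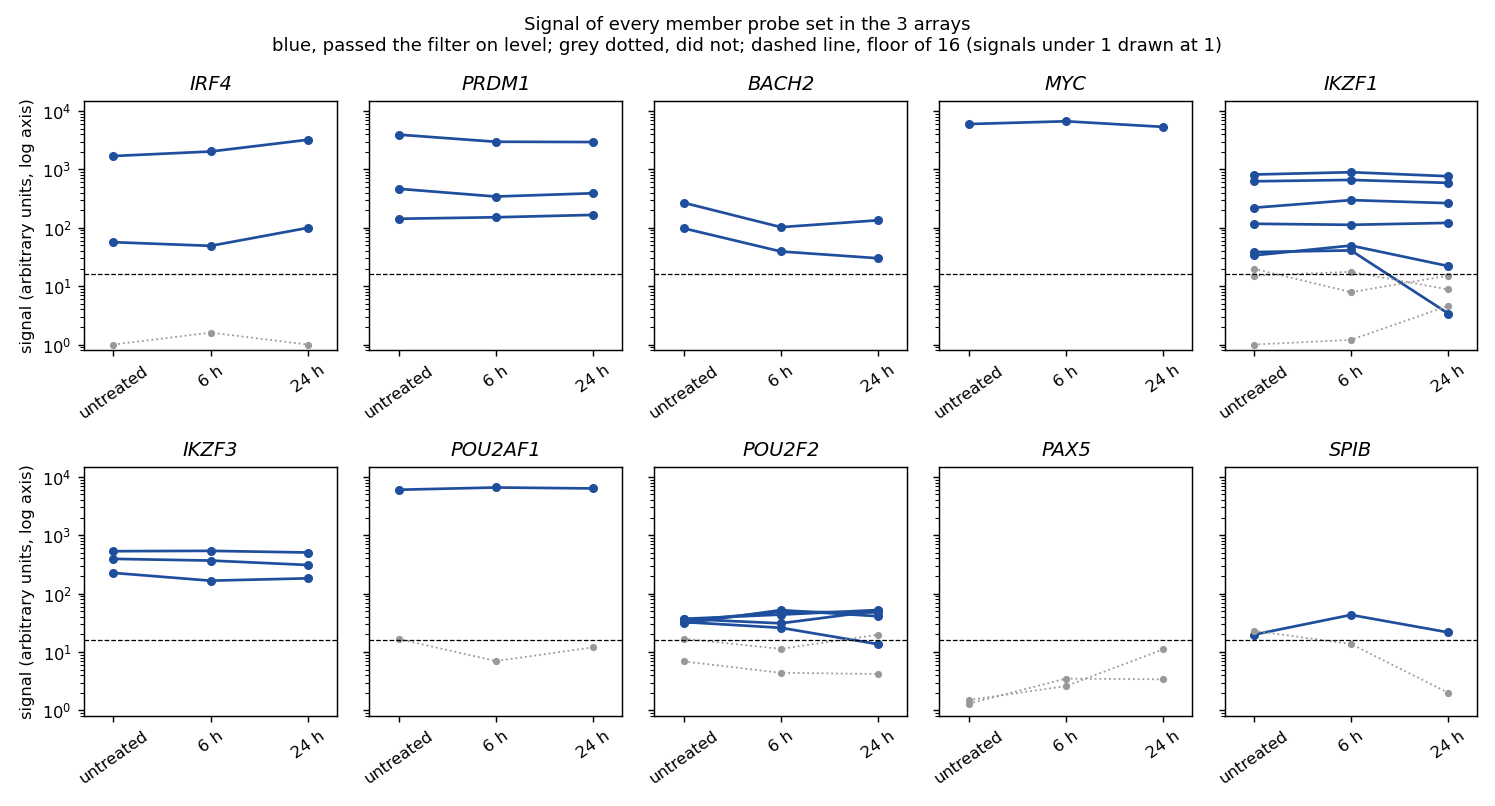
Signal of all 34 member probe sets (log axis, arbitrary units) in the untreated, 6 h and 24 h arrays, 1 panel per gene. Each line is a probe set, blue where kept and grey dotted where not, and the dashed line is the floor of 16. Both BACH2 lines are lower in each treated array than in the untreated one, both kept IRF4 lines are highest at 24 h, and both PAX5 lines stay under the floor.

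IRF4 binds DNA with Ets factors, among them SPIB, or with AP-1 proteins. Probe set 204562_at read 1698 without FK866, 2030 after 6 h and 3226 after 24 h, so that each array lay above the one before. Its log2 differences from untreated cells were 0.26 at 6 h and 0.93 at 24 h, which is 1.46 and 4.60 times the probe set SD at that level. Against the larger SD at the mean level of IRF4's kept probe sets, 0.28 and 0.29, these multiples are smaller. Among the 5530 genes whose mean log2 signal was 8 or more, the 24 h difference ranked 17th from the highest and the 6 h difference 582nd. Probe set 216986_s_at had 56.7, 49.1 and 99.9 in the untreated, 6 h and 24 h arrays. It was thus 0.21 lower at 6 h on the log2 scale, within the probe set SD, and 0.82 higher at 24 h. Between the treated arrays, IRF4 was 1.59-fold higher at 24 h than at 6 h by 204562_at and 2.03-fold higher by 216986_s_at. The third probe set, 216987_at, had signals from 0.4 to 1.6 and gives no order.

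Of 5967 genes with several kept probe sets, of any level and number, 39 (0.654%) had all of them at least 1.5-fold higher at 24 h. IRF4, with 2 kept probe sets, was among these. For 11 genes (0.184%) all were at least 2-fold higher, and IRF4 was not among these. The choice of scaling decided on which side of 2-fold IRF4 fell. Its 24 h difference by 204562_at was 1.11 after quantile normalization, 1.17 after centring each array on its median and 1.10 after subtracting the median difference, all past 2-fold.

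The sequence upstream of the IRF4 start site is shown because IRF4 was the highest member at 24 h, and those of BACH2 and of both PRDM1 starts in the table because BACH2 was lowest and BLIMP1 is its known target. Each is the 250 bases before the annotated start, 5′ to 3′ on the gene's strand, from RefSeq on GRCh38.p14. Capitals mark matches, on either strand, to the 4 motifs named below. The windows are chr6:391502-391751 on the plus strand for IRF4, chr6:90296844-90297093 on the minus strand for BACH2, and chr6:106086086-106086335 and chr6:106098691-106098940 on the plus strand for PRDM1. RefSeq begins the PRDM1 gene at 105992690, before both windows. First and second therefore number only the starts with a window here.
IRF4: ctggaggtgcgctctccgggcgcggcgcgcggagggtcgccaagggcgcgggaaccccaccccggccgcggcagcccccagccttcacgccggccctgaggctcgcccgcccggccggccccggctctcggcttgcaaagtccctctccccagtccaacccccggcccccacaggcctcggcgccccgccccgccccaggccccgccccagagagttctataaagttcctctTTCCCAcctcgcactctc
BACH2: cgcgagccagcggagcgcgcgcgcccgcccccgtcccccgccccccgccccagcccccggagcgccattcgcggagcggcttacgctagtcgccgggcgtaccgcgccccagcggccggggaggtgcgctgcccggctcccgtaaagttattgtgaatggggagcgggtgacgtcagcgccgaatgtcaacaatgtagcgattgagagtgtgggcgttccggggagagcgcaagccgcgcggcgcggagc
PRDM1 first start: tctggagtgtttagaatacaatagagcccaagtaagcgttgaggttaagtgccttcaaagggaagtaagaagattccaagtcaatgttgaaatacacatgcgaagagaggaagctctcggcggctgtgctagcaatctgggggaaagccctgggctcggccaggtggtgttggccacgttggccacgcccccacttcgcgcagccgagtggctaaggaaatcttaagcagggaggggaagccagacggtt
PRDM1 second start: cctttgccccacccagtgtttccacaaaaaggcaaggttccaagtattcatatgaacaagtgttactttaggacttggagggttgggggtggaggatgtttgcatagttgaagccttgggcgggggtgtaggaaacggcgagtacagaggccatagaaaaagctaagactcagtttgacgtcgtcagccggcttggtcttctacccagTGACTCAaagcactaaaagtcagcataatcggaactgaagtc

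These windows hold few of the 4 short motifs searched, which are bound by proteins of the members or their families. The motifs were the E-box CACGTG of MYC, the octamer ATGCAAAT, the BACH and AP-1 site TGACTCA and the Ikaros core TGGGAA. None of the 4 contains another, both strands were searched, and motifs bound by IRF4 itself were not searched. IRF4 has 1 match, to the Ikaros core, 18 bases before the start, and 20.8% of all 35116 promoter windows of this length hold one. The window of the second PRDM1 start has 1 match to TGACTCA, 42 bases before the start, and 4.20% of all windows hold one. The window of the first PRDM1 start and that of BACH2 matched 0 of the 4 motifs. In all, 7 members have windows in the table, 10 windows together, and besides these only IKZF1 had a match, to the Ikaros core. The shares of all windows were 6.34% for the E-box and 1.63% for the octamer, with 0 member windows each. The G and C content was 76% for the IRF4 window and 73.6% for BACH2, against 53.6% and 48.8% for the first and second PRDM1 windows and a median of 58% over all windows.

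PRDM1 encodes BLIMP1, the repressor of PAX5, CIITA and MYC in terminal differentiation. Its probe set 228964_at read 3945 without FK866, 2982 after 6 h and 2947 after 24 h. Both treated arrays were lower, by 0.40 and 0.42 on the log2 scale, or 2.29 and 2.09 times the probe set SD of its level, and they hardly differed from each other. These multiples are smaller against the SD at the mean level of the 3 PRDM1 probe sets, 0.28 and 0.29. Probe set 217192_s_at had 466, 343 and 391, lower by 0.44 and 0.25. Probe set 235668_at, the dimmest, had 143, 152 and 166, higher by 0.08 and 0.22, so that 2 of 3 probe sets were lower at each time. The mean over the 3 probe sets was -0.25 at 6 h and -0.15 at 24 h, and after centring on array medians the brightest differed by -0.17 at both times.

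BACH2 is a repressor that pairs with small MAF proteins and holds back PRDM1 in B cells. Its probe set 221234_s_at read 269 without FK866, 103 after 6 h and 135 after 24 h. Probe set 227173_s_at had 98.2, 39.3 and 30.1. Every treated value was below both the untreated value of its probe set and the 2-fold line. The log2 differences were -1.39 and -1.001 for the first and -1.32 and -1.71 for the second at 6 h and 24 h. These are 3.51 and 2.56 times the probe set SD for the first and 2.71 and 3.45 times for the second. Between the treated arrays the probe sets disagreed, with log2 differences of 0.39 and -0.39, so no order of 6 h and 24 h holds for BACH2.

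At 6 h the brighter BACH2 probe set was the 15th lowest of 3109 genes whose mean log2 signal was between 6 and 8, and at 24 h the 91st lowest. Of the 5967 genes with several kept probe sets, of any level and number, 18 (0.302%) had all of them at least 2-fold lower at both times. BACH2 was among them. At 24 h 221234_s_at lay just past the threshold, at a 2.00-fold size, and it was inside it after quantile normalization (-0.84), centring (-0.75) and subtraction of the median difference (-0.82), while 227173_s_at stayed past 2-fold under these 3 scalings. Both probe sets carry the suffix of sets that may bind more than 1 transcript, and the annotation gives BACH2 no other probe set.

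PAX5 and SPIB, the other members of the B cell programme, were near or under the floor. PAX5, which commits cells to the B lineage, had signals of 1.3, 3.5 and 3.4 by 206802_at and 1.5, 2.6 and 11.1 by 221969_at in the untreated, 6 h and 24 h arrays, so no fold can be given. SPIB, an Ets factor that partners IRF4, had 19.8, 43.2 and 21.7 by 205861_at, its single kept probe set. The 6 h array was thus 2.18-fold higher than the untreated one, 1.87 times the probe set SD of that dim level. Its other probe set, 232739_at, had 23.1, 13.7 and 2.0, lower in both treated arrays. With a floor of 64 SPIB had no difference at either time, because all its signals lie under that floor.

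**Figure D2:**
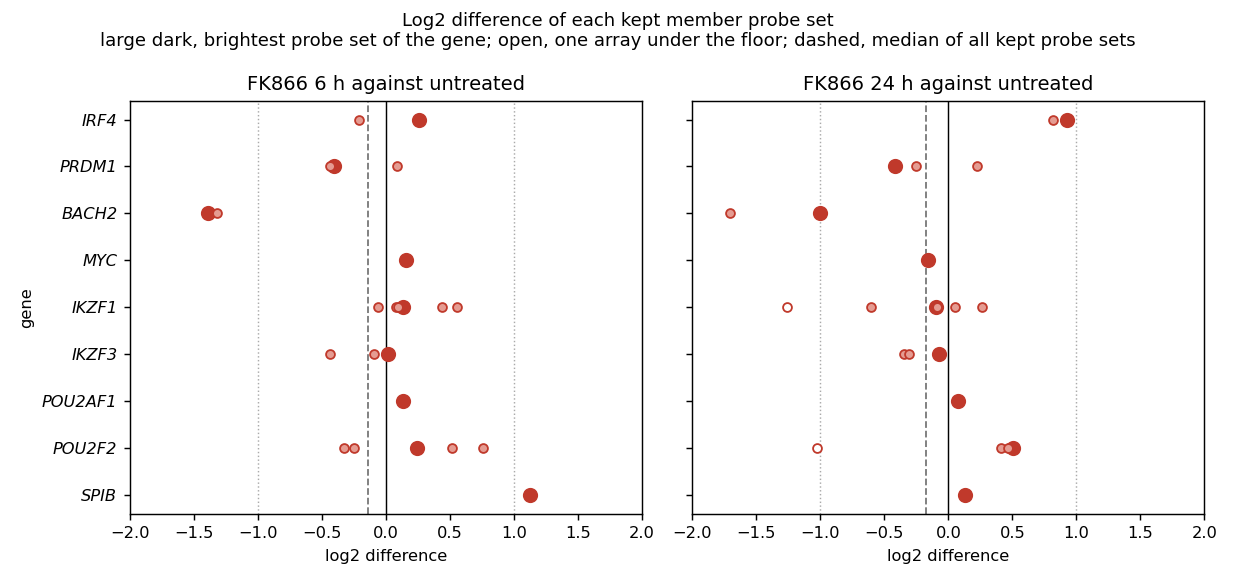
Log2 difference from untreated cells of the 24 kept member probe sets at 6 h (left) and 24 h (right), 1 row per gene. Large dark points are the brightest probe set of a gene, open points have 1 array under the floor, dotted lines mark 2-fold and the dashed line the median of all kept probe sets. Both BACH2 points lie at or beyond the lower 2-fold line at each time, and both IRF4 points lie between 0.82 and 0.93 at 24 h.

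POU2AF1, the B cell coactivator of the octamer factors, was nearly level. Its probe set 205267_at had signals of 6020, 6582 and 6342 in the untreated, 6 h and 24 h arrays, differences of 0.13 and 0.07 that lie within the probe set SD. The second probe set, 1569675_at, had 16.7, 7 and 12. POU2F2, which encodes the octamer factor OCT2, was dim, with untreated signals from 30.8 to 37.0 in its 5 kept probe sets. At 24 h 4 of these were 1.33-fold to 1.42-fold higher, while 211660_at had 13.6 at 24 h, against 32.6 in untreated cells, which is at least 2.04-fold lower. At 6 h 3 of the 5 were higher and 2 lower. The remaining probe sets, 228343_at and 211771_s_at, had signals from 11.3 to 19.8 and from 4.2 to 6.9.

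IKZF1 and IKZF3 encode Ikaros and Aiolos, the zinc finger proteins that cereblon marks for degradation under lenalidomide. The brightest IKZF1 probe set, 227346_at, had signals of 818, 896 and 765 in the untreated, 6 h and 24 h arrays, and 205039_s_at had 627, 661 and 589. These differences, from -0.10 to 0.13 on the log2 scale, are within the probe set SD. Probe set 227344_at had 221, 298 and 264, and 205038_at had 117, 113 and 121. The 2 dim kept probe sets were lowest at 24 h. Probe set 1565818_s_at had 33.7, 49.6 and 22.1, and 1565817_at had 38.4, 41.0 and 3.4. The second was at least 2.40-fold lower at 24 h than in untreated cells, its 24 h signal lying under the floor. The 4 brighter probe sets of the gene lay between -0.10 and 0.26 at that time, so the lower signal was not shared across IKZF1. The other 3 probe sets of IKZF1 were not kept, with signals from 0.6 to 19.9.

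IKZF3 had signals of 533, 541 and 506 by 227030_at, 394, 369 and 310.0 by 236301_at and 226, 167 and 183 by 221092_at. All 3 were lower at 24 h, by 0.08, 0.35 and 0.31 in that order. These are 0.26, 1.22 and 0.79 times the probe set SD of their levels. The sign of IKZF1 and IKZF3 at 24 h was not stable, since their brightest probe sets differed by 0.06 each after quantile normalization.

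MYC has 1 probe set, 202431_s_at, which read 5996 without FK866, 6685 after 6 h and 5360.0 after 24 h. It was 1.11-fold higher at 6 h and 1.12-fold lower at 24 h than untreated cells, differences of 0.16 and -0.16 that lie within the probe set SD at that level. After quantile normalization these were 0.30 and 0.02, so the sign at 24 h depended on the scaling. Between the treated arrays MYC was 1.25-fold lower at 24 h than at 6 h, 2.04 times the probe set SD, and remained lower under every scaling, by 0.28 to 0.32 on the log2 scale.

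Over the 24 kept member probe sets, 3 were called at 6 h, 1 of them higher and 2 lower. Among all 27308 kept probe sets 6.6% passed 2-fold at 6 h, 1.34% higher and 5.26% lower. At 24 h 0 members were higher and 4 lower, against 1.14% and 6.34% of all kept probe sets, together 7.47%. The split at 24 h was 2 higher and 2 lower after quantile normalization and after centring, and 1 higher and 2 lower after subtracting the median difference. Under these scalings, in that order, 5.57%, 5.7% and 5.93% of all kept probe sets passed 2-fold at 24 h. Between the treated arrays as deposited 1 member was higher and 2 lower at 24 h than at 6 h, against 1.23% and 2.01%, together 3.24%. The called members came from 2 genes at 6 h (BACH2 and SPIB), 3 at 24 h (BACH2, IKZF1 and POU2F2) and 2 between the treated arrays (IRF4 and IKZF1). Counts of 3 or 4, partly of the same gene, are too few to set against these shares, and the called probe sets outside BACH2 had untreated signals under 60. The median member difference was 0.08 at 6 h and -0.08 at 24 h, against -0.14 and -0.18 over all kept probe sets.

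**Figure D3:**
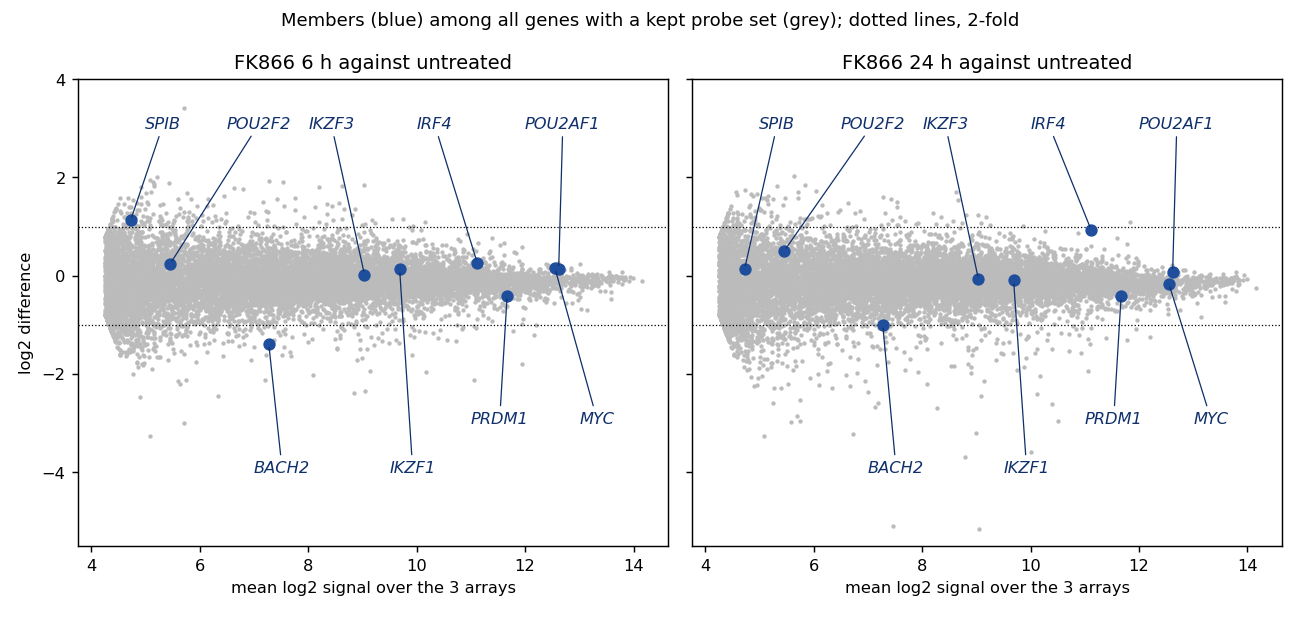
Log2 difference from untreated cells (vertical) against mean log2 signal over the 3 arrays (horizontal) at 6 h (left) and 24 h (right). Grey points are all 11883 genes by their brightest kept probe set, blue points the 9 members with one, and dotted lines mark 2-fold. The spread of grey points narrows with level, and IRF4 at 24 h (0.93) lies near the upper edge of genes of its level, whereas MYC and POU2AF1 lie within it.

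Genes whose pattern lay nearest to that of IRF4, PRDM1 or MYC were found by the Euclidean distance between the pairs of log2 differences from untreated cells at 6 h and 24 h, over 5530 genes whose mean log2 signal was 8 or more. This likeness rests on 3 arrays. For IRF4 the nearest were SNAPC3 at a distance of 0.06, GPATCH11 at 0.12 and ANKRD37 at 0.13. SNAPC3 had signals of 198, 245 and 371 in the untreated, 6 h and 24 h arrays. Only 1 gene lay within 0.1 of IRF4, against 176 for PRDM1 and 170 for MYC. The nearest genes to PRDM1 were DENND6A, RNPS1 and C12orf75, each within 0.01, and the nearest to MYC were FIP1L1, MFN1 and SLC25A46, likewise within 0.01.

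Around the members, 11 gene lists were read by their brightest kept probe sets. Over all 11883 genes, 1.44% passed 2-fold on the higher side and 3.32% on the lower side at 6 h, and 1.14% and 4.17% at 24 h. The octamer relatives POU2F1, POU2F3, POU2AF2 and POU2AF3 had 0 measured genes of 4. KLF2, ELL2 and XBP1 each stand in 2 lists.

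Other B lineage transcription factors had 4 of 22 measured genes at least 2-fold lower at 6 h and 4 at 24 h, the same 4 genes, and 0 higher. These counts are by brightest probe sets. Another gene of the list, 0.18 higher at 24 h by its brightest probe set, reached 1.25 by a dimmer one. REL, an NF-kB subunit of activated B cells, had signals of 153, 64.7 and 32.7 in the untreated, 6 h and 24 h arrays, and its 4 probe sets were all more than 2-fold lower at both times. BATF3, an AP-1 partner of IRF4, had 93.8, 32.4 and 42.5. RUNX3, a Runt factor of lymphocytes, had 845, 415 and 419.7, differences of -1.03 and -1.01. BCL6, the germinal centre repressor that opposes PRDM1, had 64, 13.1 and 20.3, so it was at least 4-fold lower at 6 h. After each of the 3 scalings 3 of these genes stayed past 2-fold at 6 h and 2 at 24 h: RUNX3 was inside it at both times, at -0.93 and -0.85 after quantile normalization, and BATF3 at 24 h, from -0.97 to -0.90. With a floor of 64 BATF3 differed by -0.55 at both times and BCL6 by 0. With log2(signal + 32) REL differed by -0.94 at 6 h. The highest genes were TCF12, an E protein, at 6 h (0.45), and ETS1 at 24 h (0.52). The list median was -0.19 at 6 h and -0.29 at 24 h.

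Of the other interferon regulatory factors, 7 of 8 were measured. IRF1, an activator of interferon responses, had 654, 375 and 319, lower by 0.80 at 6 h and by 1.04 at 24 h, the second not 2-fold after quantile normalization (-0.89). Its other kept probe set was lower by 0.65 at 6 h and by 0.58 at 24 h. IRF7 was highest at 6 h (0.55) and IRF2 at 24 h (0.11). The list medians were -0.24 and -0.02.

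Among relatives of the Ikaros proteins and parts of the cereblon ligase, all 9 were measured and 1 was called. IKZF2, encoding Helios, had signals of 49.8, 27.6 and 17.8, lower by 1.48 at 24 h, with 0 difference under a floor of 64. CRBN, cereblon itself, had 459, 454 and 455. CUL4B, a cullin of that ligase, was highest at both times by its brightest probe set (0.43 and 0.25), and the list medians were -0.02 at each. The 4 kept probe sets of CUL4B disagreed, from -0.39 to 0.52 at 6 h and from -0.19 to 0.25 at 24 h. Another gene of the list, at -0.35 at 6 h by its brightest probe set, reached -1.60 by a dimmer one.

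PRDM relatives and BACH partners had 0 of 10 measured genes called at either time, with medians of -0.14 and -0.31. BACH1, the paralogue of BACH2 that represses haem oxygenase, had 860.2, 527 and 472, lowest of the list by -0.71 at 6 h and -0.86 at 24 h. PRDM15 was highest at 6 h (0.45). MAFF, a small MAF protein, had 228, 298 and 411, highest at 24 h (0.85), and it was past 2-fold after each of the 3 scalings (1.003 to 1.10).

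The MYC family and its partners had 14 of 18 genes measured, with medians of 0.06 at 6 h and 0.07 at 24 h. MYCL, a paralogue of MYC, had signals of 15.6, 29.1 and 50.5, so it was at least 0.86 higher at 6 h and 1.66 higher at 24 h on the log2 scale, with 0 difference under a floor of 64. At 6 h MYCL was past 2-fold after centring (1.09) and after subtracting the median difference (1.01). MXD1, a repressor that competes with MYC for MAX, had 248, 174 and 96.9, lower by 1.35 at 24 h, with its second probe set at -0.65. MNT, another such repressor, was lowest at 6 h (-0.75), its second probe set at 0.38. MAX, the obligate partner of MYC, had 745, 766 and 634 by its brightest probe set. Its 5 kept probe sets ran from -0.89 to 0.63 at 6 h and from -1.13 to -0.15 at 24 h. With probe sets of a cross-hybridising suffix left out, the list median at 6 h was -0.51 over 10 genes.

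Canonical MYC targets had 0 of 23 measured genes called at either time. Their medians of -0.11 at 6 h and -0.12 at 24 h lay beside those of all genes, -0.10 and -0.13. After centring on array medians the target medians were 0.12 and 0.13. Centring shifts every gene by the same amount at a given time, so the targets still lay beside all genes. CCND2, the D-type cyclin of MAF-driven myeloma, was lowest at both times, with 10658, 6655 and 8272 (-0.68 and -0.37). Dimmer probe sets passed 2-fold, reaching -1.24 at 6 h for CCND2 and -1.08 at 24 h for another target. RIOX2, a hydroxylase of ribosomal protein, was highest at both times, with 996, 1374 and 1492 (0.46 and 0.58).

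Genes described as dependent on IRF4 in myeloma were all measured, 8 of 8. SCD, a fatty acid desaturase, had 2268, 905 and 2380, and SQLE, a sterol enzyme, had 239, 55.1 and 241.0. By these brightest probe sets both were more than 2-fold lower at 6 h and near their untreated signals at 24 h. Their kept probe sets disagreed, with differences at 24 h from -0.75 to 0.59 for SCD and from -0.55 to 0.01 for SQLE, and at 6 h from -1.41 to -0.36 and from -2.12 to -0.62. By the mean over probe sets SCD was lower by 0.94 at 6 h. KLF2, a quiescence factor that IRF4 controls, was highest at 6 h (0.32). XBP1, the secretory factor of plasma cells, had 8110, 5511 and 4695, lowest of the list at 24 h (-0.79). The medians were -0.35 and -0.23, and the first was -0.17 over 7 genes without probe sets of a cross-hybridising suffix.

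Plasma cell identity and secretion genes, 24 of 26 measured, had medians of -0.12 and -0.18 and 0 called at 6 h. At 24 h CXCR4, the bone marrow homing receptor, was lower in all 3 of its probe sets, by 1.45 to 1.58 on the log2 scale, with signals of 3031, 2413 and 1013 over the arrays by the brightest. FCRL5, an Fc receptor homologue of myeloma cells, had 16.3, 23.5 and 36.0 in the untreated, 6 h and 24 h arrays, 2.21-fold higher at 24 h, with 0 difference under a floor of 64. ITGA4, an integrin, was lowest at 6 h (-0.63).

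B cell genes that PAX5, EBF1 or CIITA sustain had 0 of 14 measured genes called at either time, and their medians were -0.17 and -0.02. BLNK, the B cell receptor linker, had 586, 803 and 982, highest at 6 h (0.46) and at 24 h (0.75). CD83 was lowest at 6 h, when its signal was under the floor, and HLA-DMB, a class II chaperone, lowest at 24 h (-0.78). Markers of other blood and stroma cells had 6 of 23 genes measured, 0 called and medians of 0.14 and -0.06. GNLY (0.77) and CSF1R (-0.43) were the extremes at 6 h, and COL1A1 (0.52) and PECAM1 (-0.34) at 24 h. Other kept probe sets went the opposite way, at -0.53 for GNLY at 6 h and, at 24 h, -2.39 for COL1A1 and up to 0.39 for PECAM1.

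**Figure D4:**
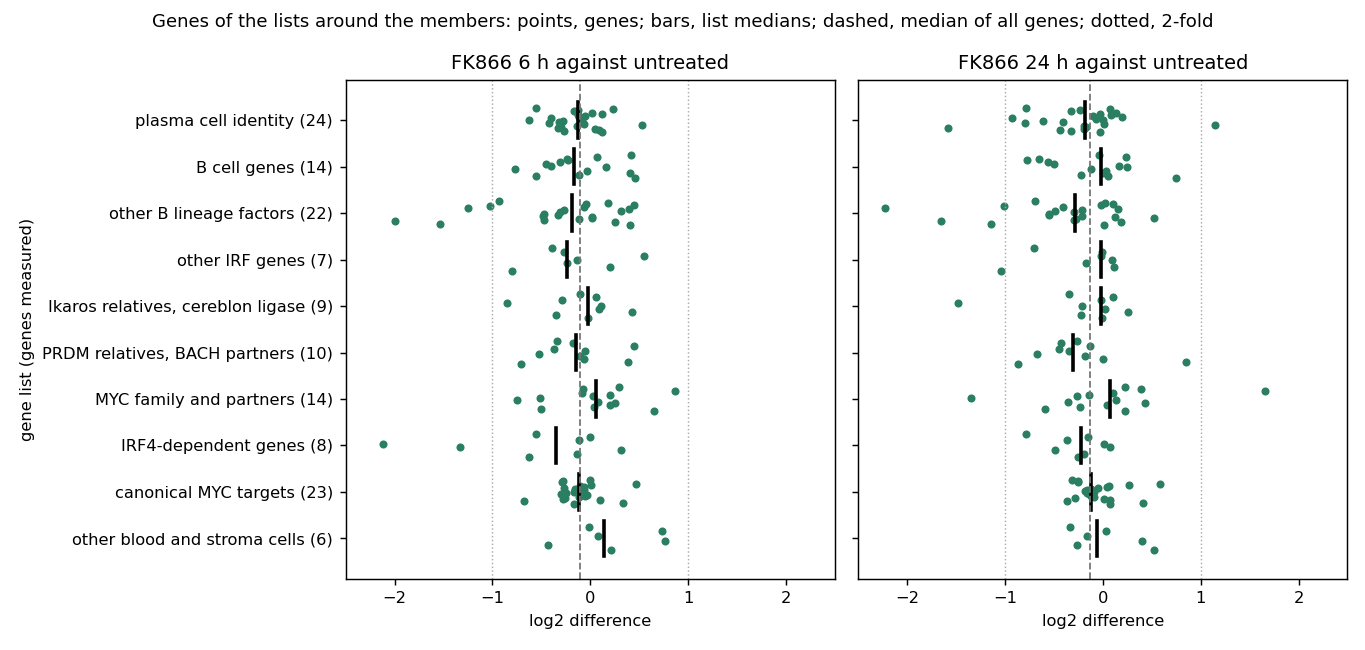
Log2 difference from untreated cells of each measured gene in the 10 lists with measured genes, at 6 h (left) and 24 h (right). Points are genes by their brightest kept probe set, black bars list medians, the dashed line the median of all genes and dotted lines 2-fold. The 4 points of other B lineage factors left of the lower 2-fold line are REL, BCL6, BATF3 and RUNX3, and canonical MYC targets all lie within 2-fold.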

How the data were processed

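Biotinylated cRNA from 1 µg of total RNA was hybridised to Affymetrix arrays, per the labels' protocols. The authors deposited 1 linear intensity per probe set and array for 54675 probe sets; no source used here says how probes were summarised, corrected and scaled. Depth is not defined for arrays, and their number, 3, limits the precision. The platform annotation of 2016 gave 1 symbol to 41097 probe sets, of which 41043 matched RefSeq by gene identifier and 0 changed name.

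The floor of 16, the filter and the log2 differences were applied to the whole table, with Python 3.11.15, numpy 2.4.6, pandas 2.3.3 and matplotlib 3.10.9, and tested on simulated data. A gene has the value of its brightest kept probe set. Named genes are all members, list genes past 2-fold, the extremes of each list at each time, XBP1, CRBN, MAX and the 3 nearest patterns of IRF4, PRDM1 and MYC; other genes, among markers and in the closing section, were named after their values were seen. Members and lists were chosen with earlier results of these data known. Alternatives covered scaling, floor, filter, probe set choice and size.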

Additional observations from a re-analysis of the deposited data

Results flagged for a closer look

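By their brightest probe sets, 3 members lay on opposite sides of untreated cells at the 2 times, and the difference between times was not tested. MYC differed by 0.16 at 6 h and -0.16 at 24 h, IKZF1 by 0.13 and -0.10, and IKZF3 by 0.019 and -0.076 on the log2 scale. Each of these is within the probe set SD of its level, and both times share the untreated array.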

How the results depend on the processing

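The number of called member probe sets, 3 at 6 h, 4 at 24 h and 3 between the treated arrays, moved with the treatment of dim probe sets. With a floor of 64 it was 1, 1 and 0, against 1.35%, 1.67% and 0.48% of all kept probe sets, and with log2(signal + 32) 1, 1 and 1, against 1.16%, 1.62% and 0.487%. With the filter raised to the 75th percentile it was 1, 1 and 0 over 14 kept probe sets, against 1.98%, 2.43% and 0.835%. Leaving out sets of a cross-hybridising suffix, it was 1, 2 and 1 over 16, against 7.65%, 8.42% and 3.44%, with 0 BACH2 probe sets left. At 1.5-fold it was 4, 7 and 7, against 22%, 24.1% and 15.3% of all kept probe sets. The 3 scalings left the counts at 3 at 6 h and between the treated arrays and at 3 or 4 at 24 h, but exchanged members at 24 h, where IRF4 entered and 221234_s_at of BACH2 and 211660_at of POU2F2 left. Under these scalings the share of all kept probe sets past 2-fold ran from 4.91% to 5.34% at 6 h. It ran from 5.57% to 5.93% at 24 h and from 3.14% to 3.65% between the treated arrays. Over all alternatives with a value, the brightest BACH2 probe set or the mean over both ranged from -1.39 to -1.16 at 6 h and from -1.35 to -0.75 at 24 h, and IRF4 from 0.87 to 1.17 at 24 h. IRF4 at 6 h ranged from 0.02 to 0.49. Of 183 recomputed member differences 167 moved by less than the probe set SD, and 0 called values changed sign. Part of the 183 could not move, so this tally overstates stability. A floor of 64 leaves signals above it unchanged, and a brightest probe set without the cross-hybridising suffix stays in use. The mean over a single kept probe set is that probe set. Where all signals lie at or under 64, that floor fixes the difference at 0. This holds for the brightest probe sets of SPIB, POU2F2, IKZF2, MYCL, FCRL5 and BCL6. Low signals limit SPIB, POU2F2 and PAX5. No paired analysis was possible because each group has 1 array, and no replicate could be left out.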

Other observations

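Some surface and signalling genes of plasma cells were lower at 24 h without reaching 2-fold; they were chosen after their values were seen. Of the 24 measured genes of plasma cell identity and secretion, 13 lay below the median of all genes at 24 h and 11 above it. LAX1, a membrane adaptor of lymphocyte signalling, had signals of 2238, 1695 and 1175 in the untreated, 6 h and 24 h arrays, and GPRC5D, a surface receptor of myeloma cells, had 1035, 770.3 and 594. IL6ST, the signalling subunit of the interleukin 6 receptor, had 4964, 4092 and 3234, with its 5 probe sets between -0.88 and -0.33 at 24 h. TNFRSF17, the surface antigen BCMA, had 7660, 9013 and 8060, SLAMF7 had 3752, 3809 and 4125, and SDC1, the surface proteoglycan CD138, had 1717, 1578 and 1817, all slightly higher at 24 h than in untreated cells.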
